A study of Mus musculus with 10 samples.

Results

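Myc and 32 genes of ribosome production were followed across mice that carried CD4+ T cells with GFP or with oncogenic Vav1. The genes were chosen by symbol: each was read from the probe set annotated to it, the brightest on average where a gene had several. A probe set was found for 31 of the 33 genes, among 19505 genes on the array, and all 31 passed the filter on low values. The expression of Nop56 and Gnl3 was not analysed here, because no probe set was annotated to them.

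The mice were of strain C57BL/10 and immunocompromised. They received T cells labelled WT + GFP or WT + Oncogenic Vav1, and tissue was taken 6 months later. Each array measured total RNA of a single sample, with 2 GFP and 4 oncogenic Vav1 arrays of spleen and 2 GFP and 2 oncogenic Vav1 arrays of lymph node. The 10 arrays came from 7 animals named in the labels, with both tissues taken from 3 of those: CTL2, ONCO2 and ONCO3. Within a tissue every array was of a different animal. The labels do not give the mutation carried by Vav1, the promoter that drove it, the age of the mice or the share of the transferred cells that remained.

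Myc is a transcription factor that binds DNA with its partner Max at the E-box, and the genes of ribosome production are among its classical targets. In the nucleolus RNA polymerase I copies the ribosomal DNA into a long precursor, small nucleolar ribonucleoproteins modify it, and separate sets of assembly factors build the small and the large subunit around its pieces. Resting T cells keep this machinery low, and T cells that enter growth after antigen contact raise Myc and enlarge their nucleoli.

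The E-box CACGTG, which reads the same on both strands, was searched in the stretch from 250 bases before to 50 bases after the start site of each gene (RefSeq, build GRCm38.p6). It was present for 6 of the 26 genes of the group whose stretch was available (23.1%) and for 2187 of 27025 genes in all (8.09%). All 33 genes were looked up, with or without a probe set. No stretch was available for some of them, Myc, Npm1 and Fbl included. The 6 windows are shown because they carry the motif that Myc and Max are known to bind, which stands in capitals, and each is written along the strand of its gene.
Nop2: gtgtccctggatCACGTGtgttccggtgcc
Pes1: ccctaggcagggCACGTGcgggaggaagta
Mybbp1a: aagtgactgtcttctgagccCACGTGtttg
Wdr43: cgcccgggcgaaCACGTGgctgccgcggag
Utp20: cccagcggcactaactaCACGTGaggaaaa
Nle1: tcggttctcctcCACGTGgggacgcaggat
The Nop2 window lies at chr6:125131811-125131840 on the plus strand, with the motif 60 bases before the start site. The other 5 lie just after it: Pes1 at chr11:3963965-3963994 (plus strand, 3 bases), Mybbp1a at chr11:72441347-72441376 (plus strand, 41 bases), Wdr43 at chr17:71616220-71616249 (plus strand, 18 bases), Utp20 at chr10:88826765-88826794 (minus strand, 38 bases) and Nle1 at chr11:82908355-82908384 (minus strand, 24 bases). A match describes the letters of the window, and binding was not measured here.

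The level of Vav1 itself was read first, on the log2 scale of the deposited values that is used throughout. It lay at 9.63 and 9.83 on the GFP spleen arrays and at 10.30, 9.99, 10.17 and 10.23 on the oncogenic Vav1 spleen arrays, with no overlap. In lymph node it lay at 9.52 and 9.69 with GFP and at 10.17 and 9.27 with oncogenic Vav1, so that the second of the latter lay below both GFP arrays. The difference was 0.45 (SE 0.21, limma, Benjamini-Hochberg adjusted p = 0.137) in spleen and 0.11 (SE 0.24, adjusted p = 0.80) in lymph node. The labels do not say whether these probes read the introduced form.

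Although labelled as CD4+ T cells, the arrays carried markers of other cells, and several marker lists moved with the construct. By the call rule given below, 17.1% of all genes rose and 9.77% fell in spleen. In lymph node 7.87% rose and 10.8% fell. The mean of 9 T cell markers was 8.42 to 8.46 with GFP and 8.97 to 9.35 with oncogenic Vav1 in spleen. There 2 rose (22.2%, near the share of all genes), while all 9 were higher on every oncogenic Vav1 array, as for 30.3% of all genes. In lymph node the mean was 9.42 to 9.43 against 7.86 and 9.05 (3 fell). The mean of 9 B cell markers was 11.04 to 11.09 against 9.69 to 10.1 in spleen, where 8 fell, and 2 fell in lymph node. The 11 neutrophil markers went from 6.14 to 6.26 up to 8.93 to 9.20 in spleen and from 6.20 to 6.34 up to 8.60 to 9.03 in lymph node, with 10 rising in each tissue; 4 of them were near background on all GFP spleen arrays and 3 on all GFP lymph node arrays. The 12 red cell precursor markers all rose in lymph node (5.88 to 5.98 against 8.37 and 10.7) and none passed the test in spleen (7.01 and 8.13 against 8.22 to 9.67). All 10 stroma and fat markers fell in lymph node (10.57 to 10.60 with GFP against 7.76 and 7.93, median difference -2.75), and in spleen 3 fell and 1 rose (6.67 to 6.87 against 6.09 to 6.39). Of 10 macrophage markers 6 rose and 1 fell in spleen (8.75 to 8.77 against 9.63 to 9.69), C1qa by 2.50, and 2 rose and 1 fell in lymph node (9.09 to 9.15 against 9.20 and 9.67). Of 7 plasma cell markers tested 4 rose and 1 fell in spleen (7.81 to 7.85 against 8.23 to 8.41) and 5 rose in lymph node (7.25 to 7.36 against 8.16 and 8.25). Of 6 platelet markers 4 rose in lymph node (6.26 to 6.31 against 7.60 and 8.46) and none passed in spleen (0 at an unadjusted p under 0.05 as well). The replicate 2 array of oncogenic Vav1 lymph node (animal ONCO3) stood apart, with the low T cell and the high red cell value. In RNA from a mixture, a change in the number of cells of a type and a change in RNA per cell cannot be told apart, and the part of these shifts in the results on ribosome genes was not tested.

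Across the group, more transcripts of ribosome production rose with oncogenic Vav1 than fell. In spleen 11 of the 31 genes rose and none fell (35.5%, against 17.1% of the 13393 genes tested that rose and 9.77% that fell, or 26.8% called in either direction). The call rule was a Benjamini-Hochberg adjusted p under 0.05 over all genes tested, from limma's moderated two-sided test. The median difference was 0.31, with a range from -0.29 to 0.94, against a median of 0.00 over all genes tested. All 4 oncogenic Vav1 arrays lay above both GFP arrays for 17 of the 31 genes, where 30.3% of all genes did so, and below both for Ppan alone, where 25.2% of all genes did so.

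In lymph node, too, 11 of 31 genes rose and none fell (35.5%, against 7.87% of all genes that rose, 10.8% that fell and 18.7% called in either direction). Every one of the 31 differences was above 0, from 0.03 to 0.88 with a median of 0.41, while the median over all genes was -0.02. For 27 genes both oncogenic Vav1 arrays lay above both GFP arrays, which 24.2% of all genes did, and for none did both lie below, which 28.8% of all genes did. The exceptions with overlapping groups were Polr1a, Tcof1, Rrs1 and Nle1. With both tissues in a model with tissue as a term and the animal as a random block, 18 genes rose and none fell (58.1%, against 17.4% of all genes that rose, 14.3% that fell and 31.7% called in either direction). The correlation estimated for that block was negative (-0.35), and without the block 16 rose, with 2963 genes called in place of 4247. The comparison over both tissues uses the same arrays as the separate ones and is no further evidence for them.

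The spread between arrays of a group was modest for these genes, with a median pooled SD of 0.15 (31 genes) against 0.19 over all genes tested. The mean level over the 31 genes was 8.58 and 8.71 on the GFP spleen arrays and 8.89 to 9.02 on the oncogenic Vav1 ones. In lymph node it was 8.54 on each GFP array and 8.92 and 9.04 on the oncogenic Vav1 ones. The lowest oncogenic Vav1 array of either tissue thus lay above the highest GFP array. Taken array by array, 24 to 28 of the 31 genes lay above the GFP mean of spleen and 30 and 31 above that of lymph node. This count was not made over all genes, so it has no background share beside it.

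**Figure D1:**
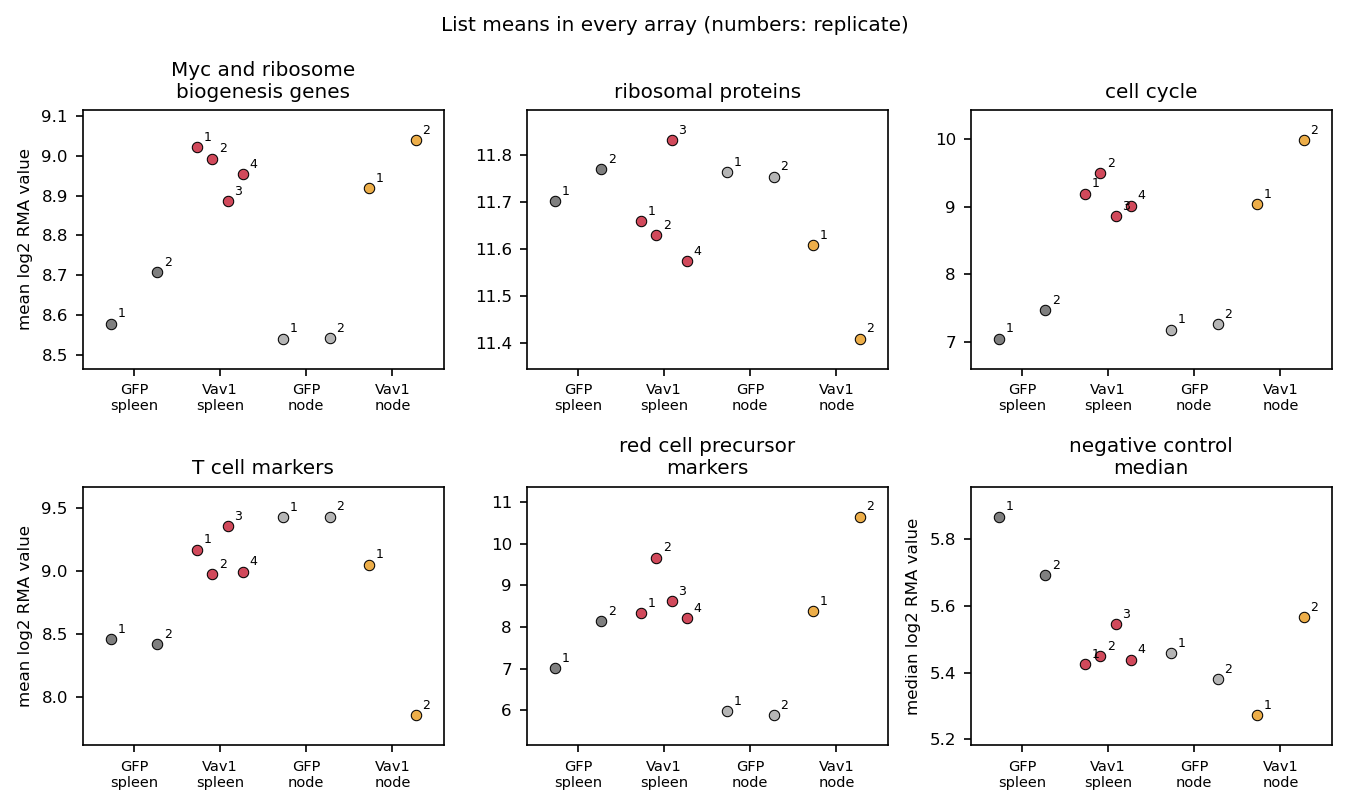
Level on each array, as a point labelled with its replicate number, of the 31 genes, ribosomal proteins, cell cycle genes, T cell markers and red cell precursor markers (mean log2 value) and of the control probe sets (median log2 value), by group. For the 31 genes the 6 oncogenic Vav1 arrays lie between 8.89 and 9.04, all above the 4 GFP arrays, which reach 8.71.

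Myc itself rose in both tissues. It lay at 9.44 and 9.36 with GFP and at 9.96, 9.81, 9.97 and 9.87 with oncogenic Vav1 in spleen, a difference of 0.50 (SE 0.12, limma adjusted p = 0.012), or 1.41-fold. In lymph node it lay at 9.20 and 9.15 with GFP and at 9.89 and 9.59 with oncogenic Vav1, a difference of 0.56 (SE 0.13, adjusted p = 0.016), or 1.48-fold. The groups did not overlap in either tissue, and the 2 differences were alike in size, with an interaction of 0.06 (SE 0.18, adjusted p = 0.86). Either GFP array of a tissue was needed for the call there: without 1 of them the adjusted p was 0.064 or 0.079 in spleen and 0.090 or 0.12 in lymph node, with the difference still between 0.46 and 0.59.

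**Figure D2:**
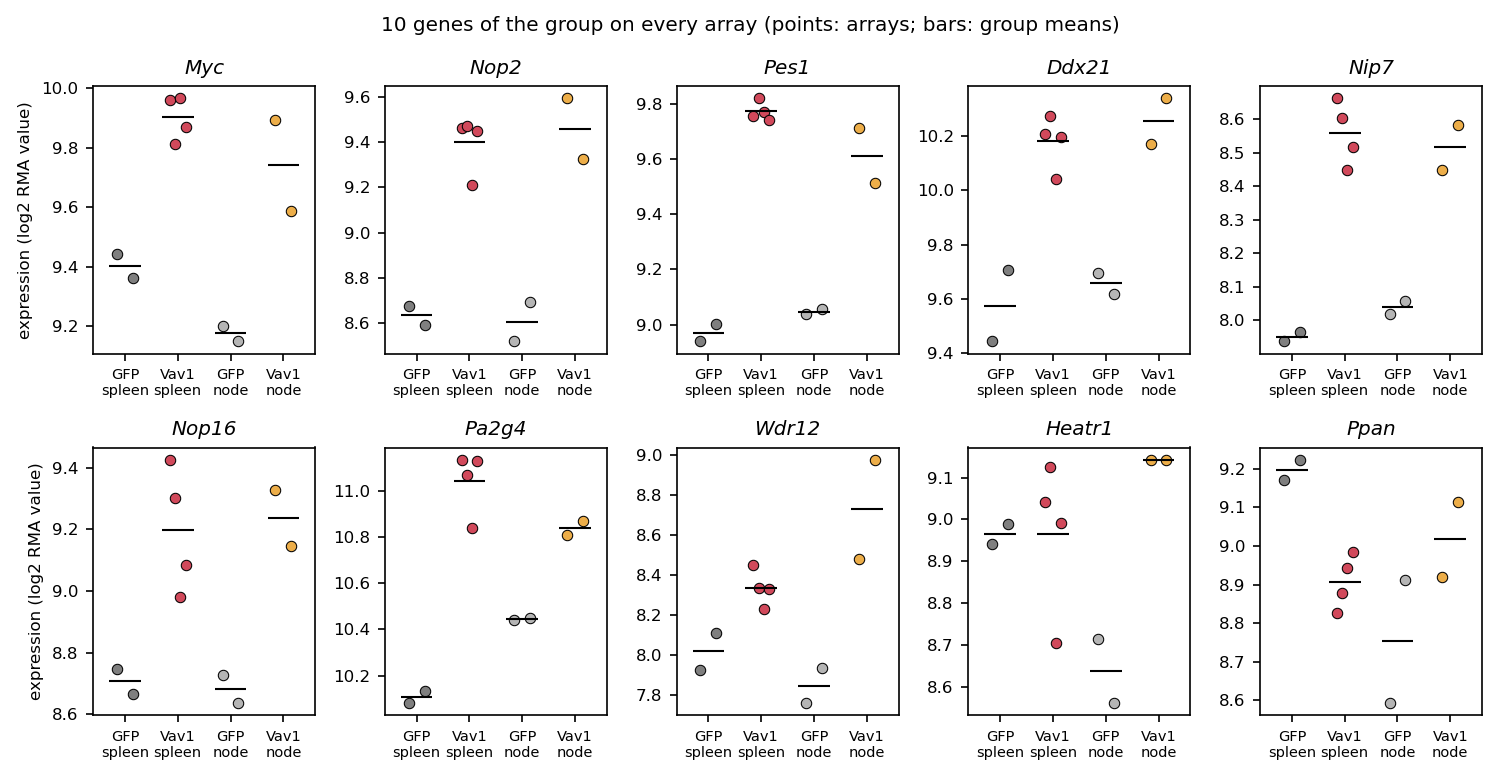
Log2 level of 10 genes of the group, Myc first, on every array, with a point per array and the group mean as a line. For Myc, Nop2 and Pes1 all oncogenic Vav1 arrays lie above all GFP arrays of their tissue, while Ppan lies lower in spleen and higher in lymph node.

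Of the 4 genes of ribosomal DNA transcription, 1 rose in spleen and over both tissues (25%, near the 17.1% and 17.4% of all genes that rose). Mybbp1a, a nucleolar protein that binds Myb and takes part in rDNA transcription, was that gene. It lay at 8.33 and 8.55 with GFP and at 8.92, 8.79, 9.07 and 8.80 with oncogenic Vav1, a difference of 0.45 (SE 0.14, limma adjusted p = 0.038). In lymph node none of the 4 passed (0 at an unadjusted p under 0.05 as well), and Mybbp1a stood at 0.33 (SE 0.16, adjusted p = 0.19). Polr1a and Polr1b, the catalytic subunits of RNA polymerase I, differed by 0.08 and -0.09 in spleen and by 0.12 and 0.26 in lymph node, and none of these passed. Tcof1, whose protein treacle supports rDNA transcription, differed by 0.32 (SE 0.21) and 0.43 (SE 0.24), with adjusted p = 0.27 and 0.25. On its oncogenic Vav1 lymph node arrays it read 7.97 and 7.21, the latter (ONCO3) inside the GFP range of 7.08 to 7.23.

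The 5 nucleolar scaffold and chaperone genes all rose over both tissues (100%, against 17.4% of all genes). In spleen 3 of them rose and in lymph node 3 (60% in each, against 17.1% and 7.87% of all genes). Pa2g4, a growth-regulated protein found in the nucleolus and on ribosomes, had the largest rise of the group in spleen, from 10.08 and 10.13 to 11.14, 11.07, 10.84 and 11.13 (0.94, SE 0.11, limma adjusted p = 0.00054, 1.92-fold). Its GFP lymph node arrays already read 10.44 and 10.45, and with oncogenic Vav1 it read 10.81 and 10.87 (0.39, SE 0.13, adjusted p = 0.056). Pa2g4 was thus separated in both tissues, and its smaller difference in lymph node gave an interaction of -0.55 (SE 0.17, adjusted p = 0.080), which did not pass.

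Ddx21, a nucleolar RNA helicase, rose alike in both tissues. It went from 9.44 and 9.71 to 10.21, 10.27, 10.04 and 10.20 in spleen (0.60, SE 0.12, limma adjusted p = 0.0053) and from 9.69 and 9.62 to 10.17 and 10.34 in lymph node (0.60, SE 0.14, adjusted p = 0.013). Ncl, which encodes nucleolin, lay at 10.23 and 10.52 with GFP and 10.79, 10.85, 10.72 and 10.81 with oncogenic Vav1 in spleen, where it just missed the threshold (0.42, SE 0.14, adjusted p = 0.052). In lymph node Ncl rose from 10.24 and 10.11 to 10.53 and 11.01 (0.60, SE 0.16, adjusted p = 0.030). Npm1, the nucleolar chaperone nucleophosmin, whose many pseudogene copies make its reading uncertain, rose in spleen from 11.64 and 11.83 to between 12.01 and 12.07 (0.31, SE 0.10, adjusted p = 0.040) and differed by 0.35 in lymph node (SE 0.11, adjusted p = 0.059). Nolc1, which carries small nucleolar ribonucleoproteins, rose in lymph node from 7.26 and 7.33 to 7.77 and 7.96 (0.57, SE 0.17, adjusted p = 0.038). In spleen the Nolc1 groups overlapped, since a GFP and an oncogenic Vav1 array both read 7.52 (0.34, SE 0.14, adjusted p = 0.10).

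Among the 4 snoRNP proteins with a probe set, both box C/D proteins rose in 1 tissue and the box H/ACA proteins in none. That made 1 risen gene of 4 in each tissue (25%, against 17.1% of all genes in spleen and 7.87% in lymph node). Fbl, or fibrillarin, the methyltransferase of box C/D particles, rose in spleen from 10.29 and 10.55 to 10.96, 10.88, 10.94 and 10.95 (0.51, SE 0.11, limma adjusted p = 0.0082). In lymph node Fbl read 10.44 and 10.54 against 10.93 and 10.72 (0.33, SE 0.13, adjusted p = 0.10), separated but not past the threshold. Nop58, the box C/D core protein, rose in lymph node from 8.63 and 8.47 to 8.95 and 9.87 (0.86, SE 0.26, adjusted p = 0.046) and missed the threshold in spleen (0.68, SE 0.23, adjusted p = 0.051).

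The box H/ACA proteins parted from each other. Dkc1, dyskerin, the pseudouridine synthase, had differences as large as those of Nop58 but a wide spread: 6.19 and 6.79 against 7.29, 7.53, 7.17 and 7.25 in spleen (0.83, SE 0.28, adjusted p = 0.053) and 6.33 and 6.28 against 6.45 and 7.62 in lymph node (0.74, SE 0.33, adjusted p = 0.15). Its highest lymph node value, as for Nop58, came from animal ONCO3, whose array also carried the most red cell and cell cycle transcripts. Over both tissues Dkc1 rose by 0.82 (SE 0.18, limma adjusted p = 0.0060) and Nop58 by 0.80 (SE 0.15, adjusted p = 0.0032). Gar1, a core protein of the same particles as dyskerin, gave 10.25 and 10.52 with GFP and 10.11, 10.11, 9.96 and 10.33 with oncogenic Vav1 in spleen (-0.26, SE 0.13, adjusted p = 0.17) and differed by 0.17 in lymph node (SE 0.15, adjusted p = 0.50).

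The 6 small subunit processome genes stayed close to GFP in spleen. None passed the test there, and 0 did so at an unadjusted p under 0.05; their differences ran from -0.09 to 0.19 with a median of 0.05, and the groups overlapped for all 6. In lymph node both oncogenic Vav1 arrays lay above both GFP arrays for all 6, where 24.2% of all genes did so. The differences there ran from 0.32 to 0.50, and Heatr1 alone passed (16.7%, against 7.87% of all genes that rose). Heatr1, a large scaffold protein of the processome, read 8.72 and 8.56 with GFP and 9.14 on both oncogenic Vav1 arrays of lymph node (0.50, SE 0.15, limma adjusted p = 0.043). In spleen Heatr1 read 8.94 and 8.99 with GFP and 8.70 to 9.13 with oncogenic Vav1, a difference of 0.00 (SE 0.13).

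Rrp9, a protein of the snoRNP that guides the first cuts of the precursor, showed the same contrast between tissues. It read 8.88 and 9.13 against 8.85 to 9.07 in spleen (-0.07, SE 0.13, adjusted p = 0.71) and 8.27 and 8.48 against 8.93 and 8.73 in lymph node (0.45, SE 0.15, adjusted p = 0.060). The interaction was 0.50 for Heatr1 (SE 0.21, adjusted p = 0.17) and 0.53 for Rrp9 (SE 0.20, adjusted p = 0.14), so that neither tissue difference passed its own test. Utp20, Wdr43, Nop14 and Rrp12 differed by -0.09, 0.18, 0.19 and 0.10 in spleen and by 0.35, 0.32, 0.32 and 0.33 in lymph node, and none of these passed. A list of 45 other small subunit genes, described below, did not share this contrast. Its median difference was 0.27 in spleen and 0.22 in lymph node, and its interaction was negative for 29 genes and positive for 16. In spleen the signs of Utp20 and Rrp9 turned when each array was centred on its median (0.018 and 0.037), and that of Heatr1 under a further quantile normalization (-0.14).

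Of the 11 large subunit assembly factors, 5 rose in each tissue (45.5%, against 17.1% of all genes in spleen and 7.87% in lymph node). With the tissues joined 8 rose (72.7%, against 17.4% of all genes). Pes1, Bop1 and Wdr12 form the complex that prepares the precursor of the large subunit RNA, and they did not move evenly. Pes1 rose in spleen from 8.94 and 9.00 to 9.76, 9.82, 9.77 and 9.74 (0.80, SE 0.10, limma adjusted p = 0.00081, 1.74-fold) and in lymph node from 9.04 and 9.06 to 9.71 and 9.51 (0.57, SE 0.12, adjusted p = 0.0087). Wdr12 rose in lymph node from 7.76 and 7.93 to 8.48 and 8.97 (0.88, SE 0.17, adjusted p = 0.0063), the largest difference of the group there, and stood at 0.31 in spleen (SE 0.15, adjusted p = 0.14). Bop1 differed by 0.26 in each tissue (adjusted p = 0.18 and 0.31) and passed over both together (0.26, SE 0.09, adjusted p = 0.043).

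Nop2, a methyltransferase of the large subunit RNA, had a large rise in both tissues. It read 8.68 and 8.59 with GFP and 9.46, 9.47, 9.21 and 9.45 with oncogenic Vav1 in spleen (0.76, SE 0.13, limma adjusted p = 0.0026, 1.70-fold). In lymph node it read 8.52 and 8.69 against 9.59 and 9.33 (0.85, SE 0.15, adjusted p = 0.0029, 1.81-fold). Nip7 and Nop16, assembly factors of the same subunit, rose in both tissues as well. Nip7 went from 7.94 and 7.97 to 8.66, 8.60, 8.45 and 8.52 in spleen (0.61, SE 0.11, adjusted p = 0.0040) and from 8.02 and 8.06 to 8.45 and 8.58 in lymph node (0.48, SE 0.13, adjusted p = 0.028). Nop16 went from 8.75 and 8.67 to 9.43, 9.30, 8.98 and 9.08 in spleen (0.49, SE 0.14, adjusted p = 0.028) and from 8.73 and 8.64 to 9.33 and 9.15 in lymph node (0.55, SE 0.16, adjusted p = 0.038).

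Wdr74, an assembly factor of the large subunit, rose in spleen from 8.68 and 9.09 to 9.82, 9.97, 9.61 and 9.71 (0.89, SE 0.16, limma adjusted p = 0.0038, 1.85-fold). As with Pa2g4, the GFP lymph node arrays were already high (9.53 and 9.48), and the oncogenic Vav1 ones read 9.70 and 10.12 (0.41, SE 0.19, adjusted p = 0.17). Noc2l, a nucleolar complex protein, differed by 0.26 in spleen (SE 0.14, adjusted p = 0.20) and by 0.45 in lymph node (SE 0.17, adjusted p = 0.088), and rose over both together (0.37, SE 0.10, adjusted p = 0.021). Rrs1 and Nle1 did not pass in any comparison, with 0.08 and -0.18 in spleen and 0.24 and 0.03 in lymph node.

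Ppan had the lowest difference in spleen, where 6 of the 31 genes lay below 0, and was the only gene of the group separated downward. This assembly factor of the large subunit read 9.17 and 9.22 with GFP and 8.83, 8.88, 8.94 and 8.98 with oncogenic Vav1 in spleen, so that all 4 lay below (-0.29, SE 0.12, limma adjusted p = 0.11). In lymph node it read 8.59 and 8.91 with GFP and 8.92 and 9.12 with oncogenic Vav1, with both above (0.26, SE 0.14, adjusted p = 0.24). The interaction was 0.56 (SE 0.20, adjusted p = 0.11). Ppan did fall past the threshold in spleen when the spleen arrays were fitted alone, when both arrays of ONCO3, or oncogenic Vav1 lymph node replicate 1 or replicate 2 alone, were left out, and after a further quantile normalization.

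**Figure D3:**
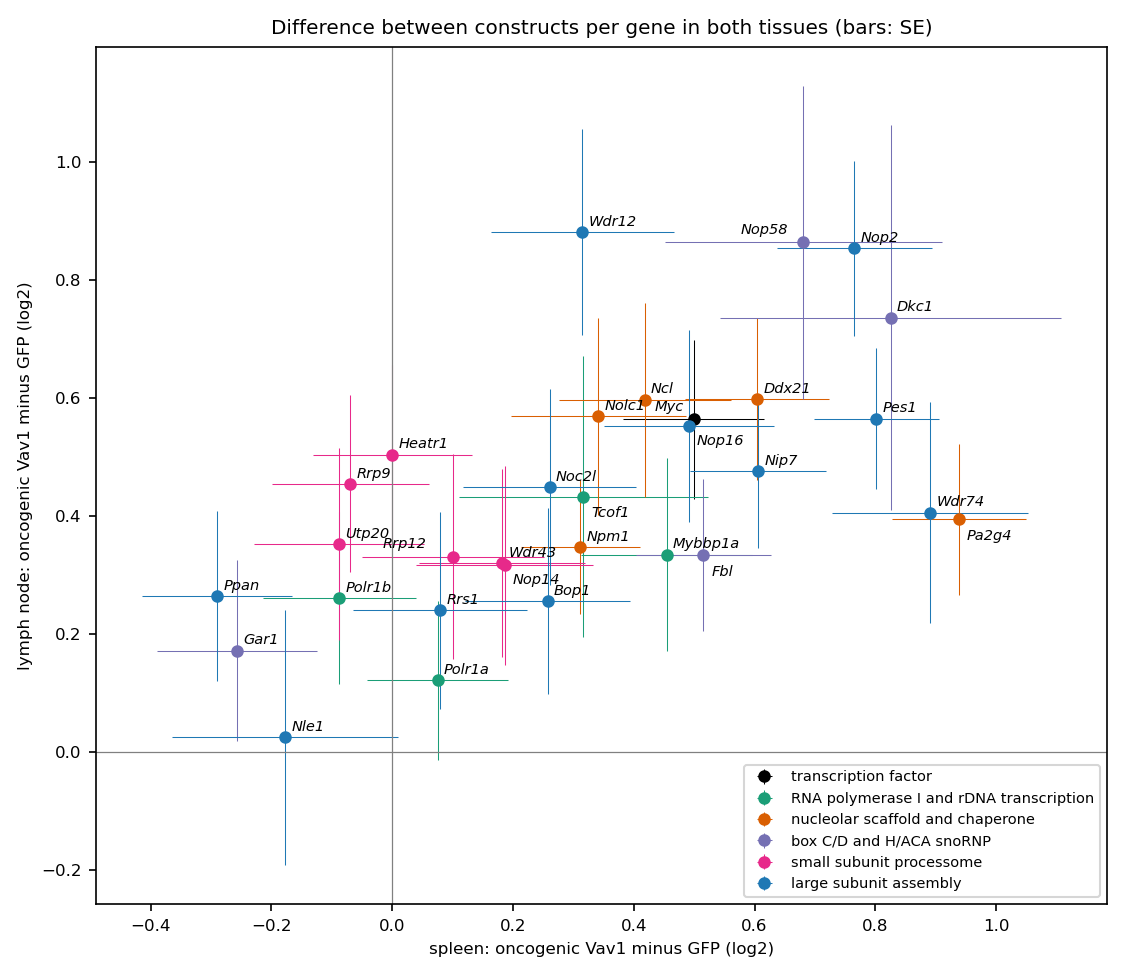
Difference between oncogenic Vav1 and GFP in lymph node (vertical axis, log2) against that in spleen (horizontal axis, log2) for the 31 genes, coloured by role, with bars of 1 SE. All 31 points lie above 0 on the vertical axis, while 6 lie below 0 on the horizontal axis.

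Set side by side, 6 genes rose in both tissues (Myc, Ddx21, Pes1, Nop2, Nop16 and Nip7), 5 in spleen alone by call (Mybbp1a, Npm1, Pa2g4, Fbl and Wdr74), 5 in lymph node alone by call (Ncl, Nolc1, Nop58, Heatr1 and Wdr12) and 15 in neither. A call in a single tissue does not show that the tissues differ. The interaction was positive for 22 of the 31 genes and passed for none, at a background of 8.04% of all genes called (0.933% higher in lymph node, 7.11% lower). At an unadjusted p under 0.05 it was higher for Heatr1, Rrp9, Wdr12 and Ppan and lower for Pa2g4. This depended on the oncogenic Vav1 lymph node arrays: without replicate 1 (ONCO2) it passed for Nop58 (0.64, adjusted p = 0.046), Ppan (0.64, 0.018), Wdr12 (0.81, 0.0061) and Pa2g4 (-0.49, 0.032), and without replicate 2 (ONCO3) for Rrp9 (0.62, 0.044), Pa2g4 (-0.58, 0.026) and Wdr74 (-0.73, 0.033). Lymph node against spleen, over both constructs, passed for none of the 31 genes, where 0.164% of all genes were called, all of them higher and 0% lower. At an unadjusted p under 0.05 Wdr74 was higher in lymph node (0.34, SE 0.15) and Rrp9 (-0.37, SE 0.13) and Bop1 (-0.29, SE 0.11) lower, with limma adjusted p of 0.22 to 0.29. This model fits a single tissue effect to both constructs and called few genes of any kind, so it does not show that the tissues were alike. On the GFP arrays Wdr74 averaged 8.88 in spleen and 9.50 in lymph node, and Rrp9 9.01 and 8.38.

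**Figure D4:**
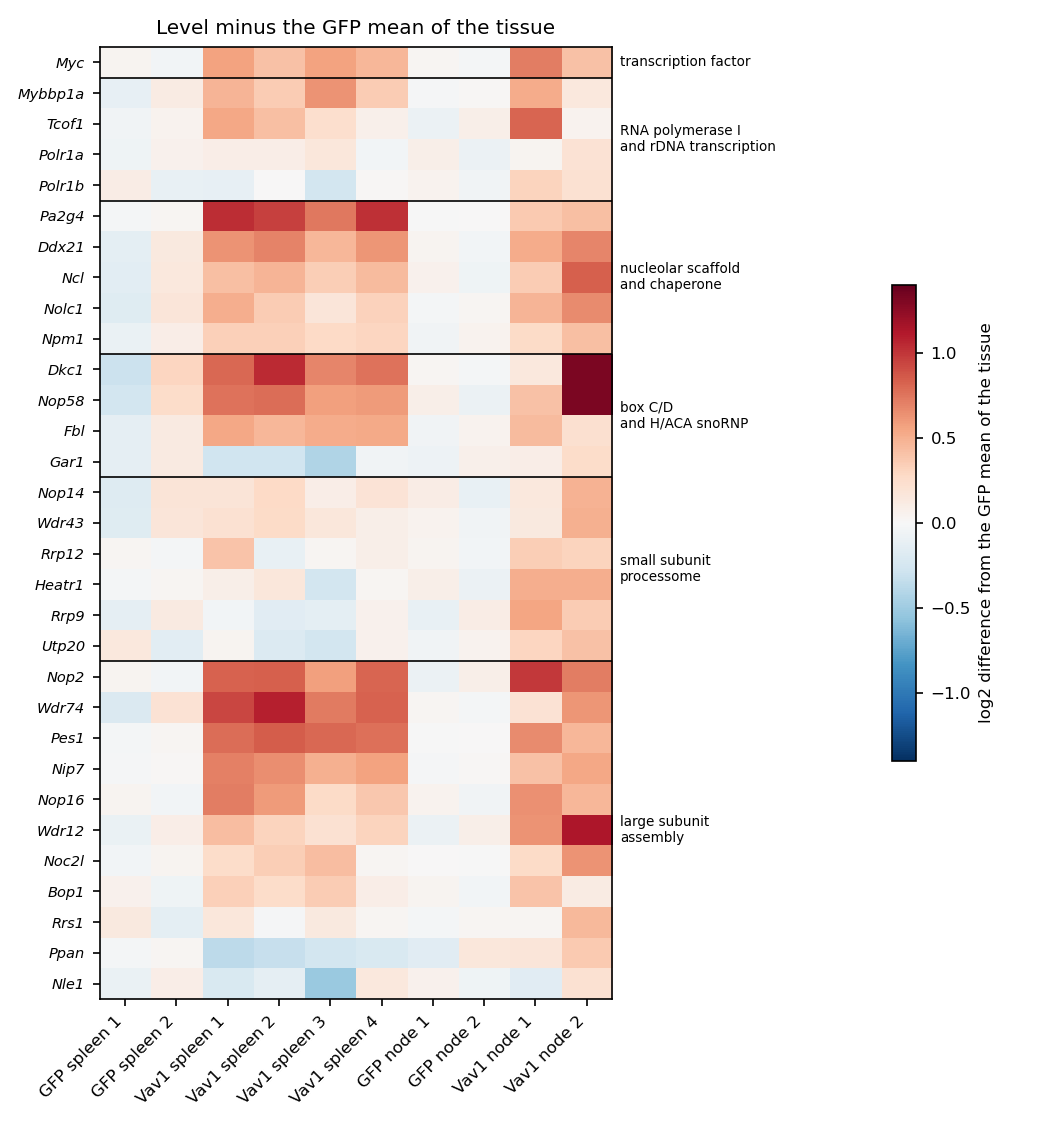
Log2 level of each of the 31 genes on each array minus the mean of the GFP arrays of the same tissue, ordered by role. The rows of Myc, the scaffold genes, Nop2, Pes1, Nip7 and Nop16 are above 0 on all 6 oncogenic Vav1 arrays, Ppan is below 0 on the 4 of spleen, and the small subunit rows are above 0 on both of lymph node.

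Of the 6 genes with an E-box window, Nop2 and Pes1 rose in both tissues and Mybbp1a in spleen, while Utp20, Wdr43 and Nle1 passed in neither. The other called genes with an available stretch held no CACGTG in it, which says only that these letters are not in that window.

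How many genes were called rested on the few control arrays. The spleen count of 11 was 4 without GFP replicate 1 and 7 without GFP replicate 2. The 7 genes that lost their call without GFP replicate 1 were Myc, Mybbp1a, Npm1, Ddx21, Fbl, Nop16 and Wdr74, while Pa2g4, Pes1, Nop2 and Nip7 kept it whichever single array was left out. Mybbp1a and Npm1 lost their spleen call in 8 and 7 of the 10 such fits. The lymph node count of 11 was 1 without GFP lymph node replicate 1, where Nop2 remained, and 2 without replicate 2, where Nop2 and Wdr12 remained. It was 18 without the ONCO2 lymph node array, and 7 and 6 without the spleen arrays of ONCO2 and ONCO4. Nop58, Heatr1 and Nop16 lost their lymph node call in 9, 8 and 7 of the 10 fits. When the lymph node arrays were fitted alone, 0 of the 31 passed. Over both tissues Bop1 lost its call in 7 of the 10 fits, Noc2l in 2, and Mybbp1a, Nolc1 and Dkc1 without GFP spleen replicate 1. The intronic control probe sets, a measure of background, had a median of 5.87 and 5.69 on the GFP spleen arrays and 5.27 to 5.57 on the others. With that median as a covariate 2 genes kept their call in spleen, Pa2g4 and Pes1, and 15 passed in lymph node.

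The rest of the machinery was followed in 5 lists that share no gene with the 31. By calls within a tissue, 4 of the 5 had shares of risen genes near those of all genes, 17.1% in spleen and 7.87% in lymph node. The share was 22% and 6% for the large subunit list, 22.2% and 8.89% for the small subunit list, 17.6% and 0% for the RNA polymerase I list, and 21.7% and 8.7% for exosome and processing genes, while the snoRNP list had 50% and 16.7%. Over both tissues the shares in the same order were 32%, 37.8%, 29.4%, 34.8% and 50%, against 17.4% of all genes. In lymph node both oncogenic Vav1 arrays lay above both GFP arrays for 28 of 50, 23 of 45, 6 of 17, 11 of 23 and 10 of 12 genes. Of all genes 24.2% did so. In spleen all oncogenic Vav1 arrays lay above for 20, 20, 8, 11 and 8 of them, where 30.3% of all genes did so. Of 12 further snoRNP genes 6 rose in spleen and 2 in lymph node with none falling, and the H/ACA core gene Nhp2 led in spleen (0.97, SE 0.14, limma adjusted p = 0.0012). In lymph node Nhp2 stood at 0.48 (SE 0.16, adjusted p = 0.059), and the genes that passed were Snu13, a box C/D core gene (0.63), and Ruvbl2 (0.47), a helicase of snoRNP assembly. Of 50 further large subunit genes 11 rose in spleen, led by Wdr18 (1.07, SE 0.16, adjusted p = 0.0017), and 1 fell, the giant remodelling ATPase Mdn1 (by 0.57, SE 0.15, adjusted p = 0.020), which was named after its value was seen. In lymph node 3 rose: Rpf2 (0.76), Urb2 (0.72) and Gnl2 (0.50). Of 45 further small subunit genes 10 rose in spleen, and in lymph node Noc4l, Pno1, Mphosph10 and Nop9 rose (0.58 to 0.80) and Wdr46 fell by 0.96 (SE 0.18, adjusted p = 0.0049). Pno1, a late factor of the small subunit, rose by 1.17 (SE 0.17, adjusted p = 0.0014) and 0.64 (SE 0.20, adjusted p = 0.047). Of 17 further RNA polymerase I genes Polr2f, Polr1d and Polr1c rose in spleen (0.83, 0.46 and 0.41) and 0 in lymph node by limma (2 up and 1 down at an unadjusted p under 0.05). Of 23 exosome and processing genes 5 rose in spleen, led by the exosome subunit Exosc8 (0.92), and 2 in lymph node, Pop1 of the RNase P and MRP particles (1.05) and Exosc8 (0.74). The medians of these 5 lists ran from 0.18 to 0.36 in spleen and from 0.20 to 0.32 in lymph node, beside 0.31 and 0.41 for the 31 genes. Centring each array on its median moved the spleen median of all genes to 0.11 and that of the 31 genes to 0.42. A further quantile normalization lowered the spleen medians of the large subunit list from 0.18 to 0.06, of the small subunit list from 0.27 to 0.14 and of the RNA polymerase I list from 0.31 to 0.18, where 1 of the 17 RNA polymerase I genes rose. Among the 31 genes it left 8 risen and 2 fallen (Gar1 and Ppan) in spleen, with a median of 0.27.

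Genes listed as Myc targets outside the ribosome moved further. Of 39 such genes 31 rose in spleen (79.5%, against 17.1% of all genes, median 0.82). In lymph node 23 rose (59%, against 7.87% of all genes, median 0.56). The amino acid transporter Slc1a5, named after its value was seen, fell there by 0.81 (SE 0.18, limma adjusted p = 0.013). Srm, which makes spermidine, rose by 1.27 (SE 0.15, limma adjusted p = 0.00056) and 0.64 (SE 0.18, adjusted p = 0.030), and Slc7a5, another such transporter, by 1.61 and 1.81. Ldha, lactate dehydrogenase, rose by 1.35 in spleen (SE 0.14, adjusted p = 0.00028) and stood at -0.26 in lymph node (SE 0.16, adjusted p = 0.29), with an interaction of -1.62 (SE 0.22, adjusted p = 0.0016). Of the 13 tested genes of the Myc network, Max (0.53, SE 0.16, adjusted p = 0.030) and Mxd1 (0.96, SE 0.27, adjusted p = 0.025) rose in spleen, and the Max partners Mga and Mxd4 fell there, Mxd4 by 0.57 (adjusted p = 0.024). Those calls were 15.4% of the list in each direction, near the 17.1% of all genes that rose and the 9.77% that fell. Mxd4 fell in lymph node too, by 0.73 (SE 0.18), and Mlxipl, a partner of Mlx, fell by 1.23 (SE 0.17, adjusted p = 0.00086). All 10 stroma and fat markers fell in that comparison as well (median -2.75), and the part of the cell mixture in these changes was not tested.

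Few ribosomal protein genes passed the test within a tissue. Of 56 measured, 1 rose in spleen (Rpl3, 0.30, SE 0.10, limma adjusted p = 0.045) and none fell, and in lymph node none rose and 5 fell, among them Rps14 by 0.62 (SE 0.17, adjusted p = 0.032) and Rps16 by 0.55 (SE 0.14, adjusted p = 0.022). Their share of fallen genes in lymph node by call, 8.93%, was near the 10.8% of all genes. By sign, 51 of the 56 differences there lay below 0. For 39 both oncogenic Vav1 arrays lay below both GFP arrays, which 28.8% of all genes did, and for 3 both lay above. In spleen 36 differences lay below 0, and all 4 arrays lay below for 12 genes, where 25.2% of all genes did so. Over both tissues 12 fell (21.4%, against 14.3% of all genes) and 1 rose. The medians of the 56 genes were -0.05 in spleen and -0.25 in lymph node. The spleen median turned to 0.06 with arrays centred on their medians (all genes 0.11), where 2 rose. After a further quantile normalization none rose and 6 fell in spleen (median -0.17), and 9 fell in lymph node (median -0.28). These genes have many near-identical pseudogene copies, so that the reading of any single one is uncertain. The 28 cell cycle genes, by contrast, all rose in both tissues, with medians of 1.86 and 2.26. The part of dividing cells in the rise of the ribosome genes and of the other Myc targets was not tested.

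**Figure D5:**
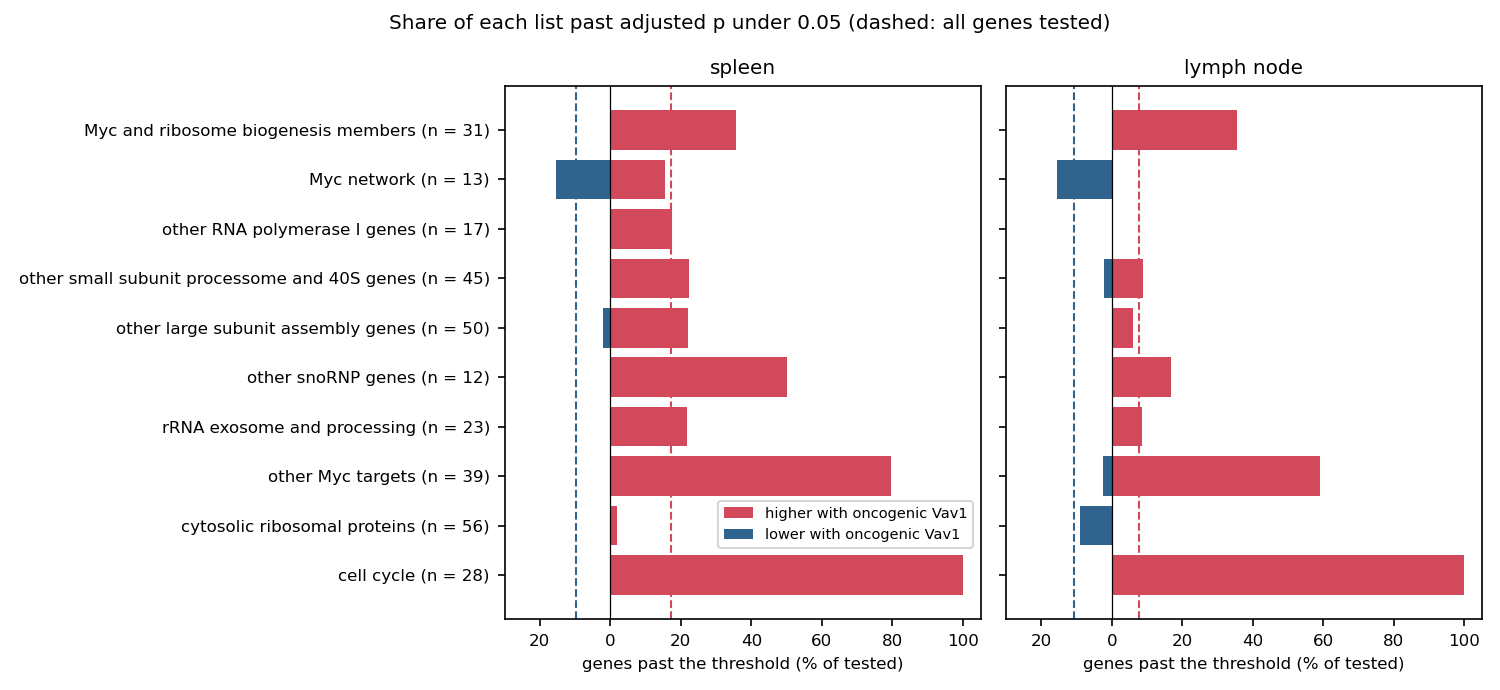
Share of the tested genes of each list (percent) that were called higher (right of 0) or lower (left of 0) with oncogenic Vav1, in spleen and in lymph node, with dashed lines at the shares over all genes tested. The 31 genes reach 35.5% in each tissue beside 17.1% and 7.87% of all genes, the cell cycle list reaches 100%, and the ribosomal proteins stay at 1.79% higher in spleen and 8.93% lower in lymph node, beside 10.8% of all genes.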

How the data were processed

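RNA was measured on single-colour Affymetrix arrays. The values deposited by the authors are log2 expression values, and the submitters' processing notes name RMA, which corrects background, normalizes quantiles and summarizes probe sets, and R 3.6.3. A genome build is not given in the sources used here. Of 29129 probe sets, 19572 had a single symbol in GEO's platform annotation, and 55 genes had several probe sets. Genes had to exceed the 40th percentile of an array on 2 or more arrays to be tested, and 13393 of 19505 did. Depth does not apply to arrays, and their number limits the precision.

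Fits ran in R 4.3.3 with limma 3.58.1 and statmod 1.5.0 (eBayes with a variance trend, two-sided, Benjamini-Hochberg adjusted p under 0.05 over all genes tested). The comparisons within a tissue came from a model of the 4 groups over all 10 arrays (6 residual degrees of freedom). Those over both tissues and between tissues came from an additive model (7 residual degrees of freedom) in which animals entered as a random block with a correlation of -0.35, and the interaction from the model of groups with such a block (correlation -0.11). The scripts were tested on simulated data. The genes and lists were chosen with earlier results of these data known, so their counts are descriptions. All 33 genes could be named, and of each other list up to 4 genes with the smallest p in spleen or lymph node. Ltv1 stands in both the small and the large subunit list. Replicate numbers of GFP and oncogenic Vav1 arrays belong to different animals and pair nothing. Printed promoter windows are 30 bases long, shorter than the 60 first planned, and mostly lie after the start site; the protein comparison planned for Nop58 was not run. Alternatives changed the normalization, the filter, the variance trend, weights, the summary of probe sets, the blocks, a background covariate and the arrays used.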

Additional observations from a re-analysis of the deposited data

Results flagged for a closer look

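Nop2 on the oncogenic Vav1 spleen array of replicate 3 (animal ONCO3) read 9.21, below the other 3 arrays of its group, the nearest of which read 9.45. The gap was 0.915 of the whole range of the group. In this check of 31 genes chance marks about 1 in 20, and Nop2 was the only one. The array still lay above both GFP spleen arrays, at 8.68 and 8.59.

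Ppan was separated in opposite directions in the 2 tissues. All 4 oncogenic Vav1 spleen arrays lay below both GFP arrays, as for 25.2% of all genes. Both oncogenic Vav1 lymph node arrays lay above both GFP arrays, as for 24.2% of all genes. There the gap was narrow, with a GFP array at 8.913 and an oncogenic Vav1 array at 8.921. The difference between the tissues was 0.56 on the log2 scale (SE 0.20, limma adjusted p = 0.11) and did not pass its test.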

How the results depend on the processing

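No called gene changed sign under any alternative. Pa2g4 and Pes1 were called in all 21 alternatives in spleen, none of the 11 genes in lymph node, and 11 of 18 over both tissues. Leave-one-out counts of risen genes of the group ran from 4 to 15 in spleen, 1 to 18 in lymph node, 13 to 22 over both tissues and 0 to 3 for the interaction; counts of fallen ones ran from 0 to 1 in spleen and 0 to 2 for the interaction. Over all genes they ran from 1079 to 5521, 943 to 4651, 2107 to 6106, 326 to 4205 for the interaction and 4 to 1031 for tissue. A group left with 1 array was assumed to vary like the others. No group mean of the 31 genes lay below the filter level of its arrays.

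The causes of these moves were not tested. With the replicate block, for numbers that pair no animals (correlations of -0.06 to 0.30), 6 lymph node genes of the group rose, and 1913 genes were called over both tissues and 3 for tissue. Array weights gave 1264 genes and 3 of the group in lymph node and 2750 for tissue, with 1 of the group higher and 1 lower. Lymph node arrays alone gave 433 and 0, and spleen arrays alone 1 fallen (Ppan). The background covariate gave 916 genes and 2 of the group in spleen and 560 for tissue. Without ONCO3, 5852 genes were called in spleen with 1 of the group fallen (Ppan), 6750 over both tissues, 4 for tissue and 2734 for the interaction, with 1 of the group up and 2 down. Centring on array medians gave 5 genes for tissue and 1 of the group down for the interaction, moved the spleen median of all genes to 0.11 and made rises 79.8% of spleen calls, against 63.6%, and 65.2% against 54.8% over both tissues. Quantile normalization gave 2 fallen in spleen (Gar1, Ppan).

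Uncalled genes changed sign in these cases. In spleen, Polr1b (0.018), Utp20 (0.018) and Rrp9 (0.037) did so with centring, Polr1a (-0.053), Heatr1 (-0.14) and Rrs1 (-0.039) with quantile normalization, and Tcof1 (-0.30) and Heatr1 (-0.11) with the covariate. Over both tissues Polr1b (-0.019, quantile), Ppan (0.082, covariate) and Rrs1 (-0.013, without ONCO3) did so, and Nle1 (-0.16, without ONCO3) in lymph node. Leave-one-out ranges were -0.20 to 0.020 (Polr1b), -0.053 to 0.087 (Heatr1), -0.23 to 0.056 (Utp20), -0.19 to 0.056 (Rrp9) and -0.054 to 0.21 (Rrs1) in spleen, -0.14 to 0.0080 (Ppan), -0.12 to 0.0065 (Gar1) and -0.0082 to 0.15 (Polr1b) over both tissues, and -0.16 to 0.21 (Nle1) in lymph node.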
